A study of Mus musculus with 15 samples.

Results

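The genes described here are 10 members of the angiopoietin and VEGF systems and of the endothelial cell surface, measured by RNA-seq in the kidneys of 15 mice. They are the ligands Angpt1, Angpt2 and Vegfa, the receptors Tek, Tie1, Kdr, Flt1 and Nrp1, and the junction proteins Pecam1 and Cdh5. They were picked by name out of 13940 genes with a summed level, with earlier results of these data known, and all 10 passed the filter of 1 FPKM (fragments scaled to transcript length and library size) in at least 5 mice. The mice were wild-type (WT) male C57BL/6 animals, young adults, in groups of 5. The Control group received saline through an implanted osmotic pump, the AngII group received angiotensin II (AngII, the pressor peptide of the renin-angiotensin system) at 500 ng/kg/min, and the AngII+QDG group received the same infusion with Qingda granules (QDG, a Chinese herbal formula) at 1.145 g/kg/day by gavage. Control and AngII mice received water by gavage, and kidneys were taken after 28 days. The design asks how the infusion changed the renal transcriptome and how QDG changed it in infused mice.

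Angiopoietin 1, made by perivascular and mesenchymal cells, activates the endothelial receptor Tie2, the product of Tek, and keeps vessels quiet and tight. Angiopoietin 2, released by endothelial cells, is a context-dependent agonist or antagonist of the same receptor, and Tie1 is its co-receptor without a high-affinity ligand of its own. VEGF-A, made in the kidney by podocytes and tubular epithelium, signals through VEGFR2, the product of Kdr, and is held back by VEGFR1, the product of Flt1, whose soluble form traps it.

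Vegfa and Tie1 were higher in the kidneys of AngII mice than in those of Control mice, and no member differed between AngII+QDG and AngII mice at an adjusted p under 0.05. Vegfa averaged 33.4 ± 2.74 FPKM in Control and 44.7 ± 4.61 FPKM in AngII kidneys (SD, n = 5 mice each), and Tie1 averaged 9.16 ± 0.952 and 11.6 ± 1.46 FPKM. Neither call held after quantile normalization (adjusted p = 0.107 for Vegfa and 0.115 for Tie1, limma) or median scaling (0.102 and 0.112), or when any 1 of several mice was left out. Angpt1 had the fitted difference of largest size among the 10, 0.94 on the log2 scale in AngII vs. Control and -0.84 in AngII+QDG vs. AngII, but it did not pass the adjusted threshold in either. It passed the filter on low values mainly through the AngII group, with 1 FPKM or more in 4 AngII mice, 1 Control mouse and 1 AngII+QDG mouse, so a difference was favoured by the filter. In a whole kidney, a change in the number of cells of a type and a change in the RNA per cell cannot be told apart. The p-values measure the spread between these mice.

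Of the 10 members, 2 were higher and 0 lower at an adjusted p under 0.05 in AngII vs. Control (limma, all 12372 genes tested), beside 4.95% of all genes tested that were higher and 5.94% that were called in either direction. The count was 0 of 10 after quantile normalization and after median scaling, which also moved the split over all genes from 612 higher and 123 lower to 227 and 268 and to 209 and 286. At an unadjusted p under 0.05 the count was 4 of 10 (Angpt1, Tie1, Vegfa and Kdr), beside 22.7% of all genes. At the criterion of the study's volcano plots, a fold change of at least 2 with an unadjusted p under 0.05, the count was 0 of 10 on the log2(FPKM + 1) scale, beside 1.05%, and became 1 (Angpt1, with a difference of 1.89) with a pseudocount of 0.1. In 1 of 10 members, Vegfa, every AngII mouse lay above every Control mouse, as in 6.49% of all genes. The fitted difference was above 0 for 8 of the 10 and their median was 0.26 on the log2 scale, beside 0.083 over all genes tested.

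In AngII+QDG vs. AngII, 0 of 10 members passed the adjusted threshold, beside 1.81% of all genes tested. At an unadjusted p under 0.05 there was 1 of 10 (Angpt1), beside 16.4%, and at the fold criterion 0 of 10, beside 0.816%, which likewise became 1 (Angpt1, -1.70) with a pseudocount of 0.1. The members were split 5 and 5 between higher and lower, and their median was -0.011 beside -0.019 over all genes. In AngII+QDG vs. Control, 0 of 10 were called at the adjusted threshold, beside 0.129%, 2 of 10 (Tie1 and Vegfa) at the unadjusted threshold, beside 14.4%, and 0 of 10 by the fold criterion, beside 0.727%. Tie1 was the only member in which every AngII+QDG mouse lay above every Control mouse, a pattern seen in 2.78% of all genes. The 3 comparisons share mice pairwise, so their values are set side by side below and not counted as independent.

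**Figure D1:**
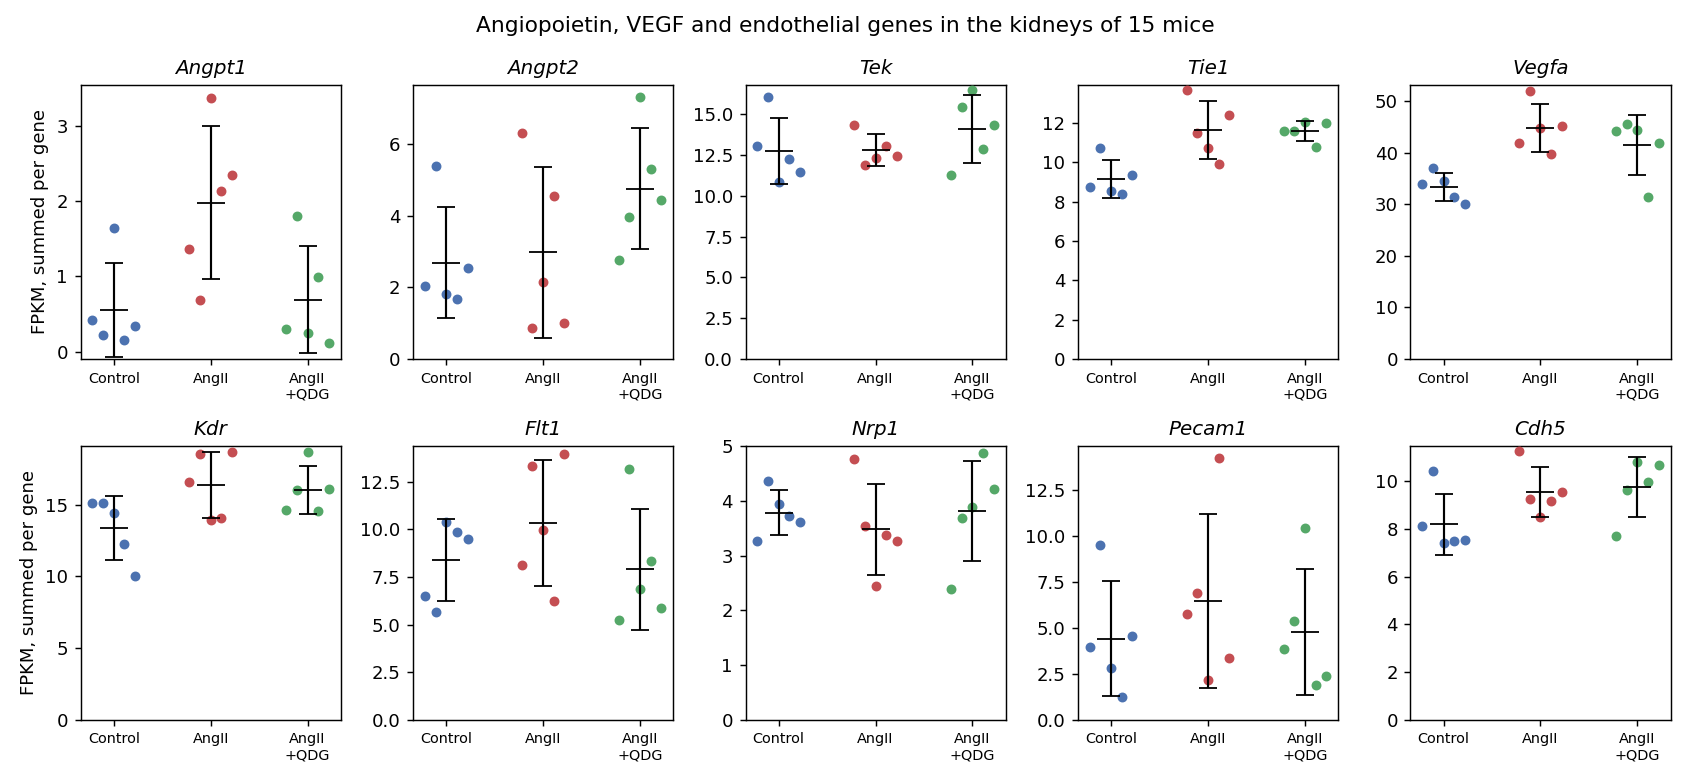
Level of each of the 10 genes in FPKM summed over its transcripts (y axis, linear) in the 5 mice of each group (x axis). Points are mice, long horizontal bars are means and error bars are SD. All 5 AngII points of Vegfa lie above the highest Control point, 37.0 FPKM, whereas the points of Pecam1, Angpt2 and Flt1 overlap between all groups.

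The labelled tissue showed its own markers: Slc34a1, the phosphate transporter of the proximal tubule, averaged 2018.5 FPKM in Control kidneys and Umod, the uromodulin gene of the thick ascending limb, 1023 FPKM. The implied sequencing depth was 68922860 to 81329478 fragments per mouse, with a median of 79345326 in Control, 79124000 in AngII and 70028765 in AngII+QDG mice. Ren1, the renin gene, which AngII is known to restrain, averaged 33.2 ± 3.79, 30.1 ± 8.97 and 28.9 ± 12.8 FPKM in Control, AngII and AngII+QDG kidneys, and in AngII vs. Control it differed by -0.18 (limma, Benjamini-Hochberg adjusted p = 0.718). In AngII+QDG vs. AngII the split over all genes was 65 higher and 159 lower, and 97 and 97 after quantile normalization.

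Within Control kidneys the levels per length ran from Vegfa (33.4 FPKM) through Kdr (13.4), Tek (12.7), Tie1 (9.16), Flt1 (8.39), Cdh5 (8.19), Pecam1 (4.42), Nrp1 (3.79) and Angpt2 (2.69) to Angpt1 (0.553). Among neighbours in that order, the ranges over 5 mice were apart for Vegfa and Kdr, for Tek and Tie1, and for Angpt2 and Angpt1, and overlapped for the rest. The members also differed in how much they varied between mice of 1 group. The coefficient of variation was 4.41% to 12.6% for Tie1, 7.55% to 15.95% for Tek, 8.20% to 14.0% for Vegfa, 35.6% to 80.0% for Angpt2, 70.8% to 73.0% for Pecam1 and 51.6% to 112% for Angpt1.

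Among the angiopoietin ligands, Angpt1 (ENSMUSG00000022309, GRCm38 chr15:42424723-42676977, minus strand, 1 listed transcript with 9 exons) was the least abundant member. Its levels were 0.414, 0.214, 1.65, 0.147 and 0.345 FPKM in Control mice 1 to 5, 1.36, 0.678, 3.37, 2.13 and 2.35 FPKM in AngII mice 1 to 5, and 0.293, 1.80, 0.242, 0.991 and 0.114 FPKM in AngII+QDG mice 1 to 5. All AngII mice lay above 4 of the 5 Control mice, and Control mouse 3 and AngII+QDG mice 2 and 4 reached into the AngII range. The fitted difference was 0.94 (95% interval 0.27 to 1.61) in AngII vs. Control (limma, Benjamini-Hochberg adjusted p = 0.0923), -0.84 (-1.51 to -0.16) in AngII+QDG vs. AngII (adjusted p = 0.193) and 0.10 (-0.57 to 0.78) in AngII+QDG vs. Control (adjusted p = 0.915). The depth behind these values was low, 34 to 1136 implied fragments per mouse with a median of 229. On a scale with a pseudocount of 0.1 in place of 1 the first differences were 1.89 and -1.70, and Angpt1 then met the fold criterion in both comparisons. Without Control mouse 3, AngII mouse 1 or AngII mouse 2 it met that criterion in AngII vs. Control too, with differences of 1.15, 1.00 and 1.13, and without AngII mouse 2 or AngII+QDG mouse 2 it met it in AngII+QDG vs. AngII, with -1.03 and -1.04.

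Angpt2 (ENSMUSG00000031465, chr8:18690263-18741562, minus strand) was at 2.05, 5.39, 1.82, 1.66 and 2.54 FPKM in the Control mice, at 6.30, 0.868, 2.14, 4.56 and 0.993 FPKM in the AngII mice and at 2.77, 3.97, 7.31, 5.29 and 4.44 FPKM in the AngII+QDG mice. The AngII mice held both the lowest values of the 15 and the second highest, so that the Control range lay within theirs. The difference was -0.024 (-0.83 to 0.78) in AngII vs. Control (limma, Benjamini-Hochberg adjusted p = 0.981) and 0.70 (-0.11 to 1.5) in AngII+QDG vs. AngII (adjusted p = 0.380), and both intervals were wide. The ratio of Angpt2 to Angpt1, which is often taken as a measure of the balance of the ligands, had a median of 7.36 (1.10 to 25.2) in Control, 1.28 (0.423 to 4.63) in AngII and 9.45 (2.20 to 39.0) in AngII+QDG mice. Angpt2 exceeded Angpt1 in 5 of 5 Control, 3 of 5 AngII and 5 of 5 AngII+QDG mice, and the ranges of the ratio overlapped between the groups. High ratios rest on low Angpt1 levels: the highest, 39.0, was that of AngII+QDG mouse 5, with 0.114 FPKM and 34 implied fragments of Angpt1.

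The receptor gene Tek (ENSMUSG00000006386, chr4:94739289-94874976, plus strand) differed little between the group means. It was at 13.04, 16.04, 10.8, 12.2 and 11.48 FPKM in Control, 14.4, 11.9, 12.3, 13.03 and 12.4 FPKM in AngII and 11.3, 15.4, 16.5, 12.9 and 14.3 FPKM in AngII+QDG mice. The groups overlapped throughout, with a difference of 0.017 (-0.22 to 0.25) in AngII vs. Control (limma, Benjamini-Hochberg adjusted p = 0.951), a sign that turned after quantile normalization (-0.073) and median scaling (-0.080). In AngII+QDG vs. AngII the difference was 0.12 (-0.12 to 0.36, adjusted p = 0.635).

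Tie1 (ENSMUSG00000033191, chr4:118471191-118490061, minus strand), the co-receptor, was higher in AngII kidneys. It was at 8.75, 10.7, 8.54, 8.40 and 9.36 FPKM in Control, 13.7, 11.496, 10.7, 9.89 and 12.4 FPKM in AngII and 11.6, 11.6, 12.1, 10.8 and 11.98 FPKM in AngII+QDG mice. Control mouse 2 reached into the AngII range, whereas the 5 AngII+QDG mice lay close together and above all Control mice. The difference was 0.31 (SE 0.085) in AngII vs. Control (limma, Benjamini-Hochberg adjusted p = 0.0472), 0.0031 (-0.18 to 0.19) in AngII+QDG vs. AngII (adjusted p = 0.991) and 0.31 (0.13 to 0.50) in AngII+QDG vs. Control (adjusted p = 0.130). A difference of the same size was thus called in the first comparison and not in the last. The call in AngII vs. Control was close to the threshold: it was lost without any 1 mouse other than Control mouse 2 or AngII mouse 4, with an adjusted p of up to 0.106, and the difference was 0.22 after either quantile normalization or median scaling (adjusted p = 0.115 and 0.112). It was not called either without a filter (adjusted p = 0.0512), with protein-coding transcripts alone (0.0745) or with the 2 compared groups alone (0.108).

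Vegfa (ENSMUSG00000023951, chr17:46016993-46032369, minus strand) was the most abundant member. It was at 33.9, 37.0, 34.5, 31.4 and 30.02 FPKM in Control, 42.0, 52.0, 44.7, 39.8 and 45.2 FPKM in AngII and 44.3, 45.6, 44.4, 31.4 and 41.8 FPKM in AngII+QDG mice. All AngII mice exceeded all Control mice, and 4 of the 5 AngII+QDG mice did as well. The difference was 0.41 (SE 0.10) in AngII vs. Control (limma, Benjamini-Hochberg adjusted p = 0.0309), -0.11 (-0.33 to 0.10) in AngII+QDG vs. AngII (adjusted p = 0.630) and 0.30 (0.082 to 0.52) in AngII+QDG vs. Control (adjusted p = 0.203). In AngII vs. Control it was 0.32 after quantile normalization (adjusted p = 0.107) and 0.31 after median scaling (adjusted p = 0.102), and the call was lost without Control mouse 1, 3, 4 or 5 or AngII mouse 2, 3 or 5 (adjusted p = 0.0527 to 0.0726). Of the markers of podocytes, a cell type that makes VEGF-A, 1 of 6 tested (Podxl) was higher and 0 lower, beside 4.95% of all genes that were higher. Podxl lost its call under the same quantile normalization and median scaling (adjusted p = 0.121 and 0.108, limma). The summed level of the podocyte markers was 80.96 to 99.8 FPKM in AngII and 65.8 to 83.05 FPKM in Control mice, so that the groups overlapped. Most of that sum was Podxl itself, at 52.3 to 70.3 FPKM in AngII and 44.2 to 52.6 FPKM in Control mice. The part of the podocyte markers in the result for Vegfa was not tested.

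Of the 13 annotated Vegfa transcripts 5 were listed, 3 of them protein-coding, and these part after exon 5, where the choice of the next exon sets how strongly the protein binds heparin and matrix. The coding sequence at that point, read from GRCm38 on the minus strand of chromosome 17, is printed with the last 30 shared bases, which end at base 46024065, in lower case and the bases of the following exon in capitals. Vegfa-201 goes straight to the last exon, at base 46018879, and ends after 22 coding bases at a stop codon. It encodes 146 residues, the precursor of the freely diffusing VEGF120 form. Vegfa-202 continues at base 46021122 into a heparin-binding exon (the VEGF164 form, 368 residues with an amino-terminal extension), and Vegfa-207 at base 46022348 into a basic exon as well (the matrix-bound VEGF188 form, 392 residues).
Vegfa-201: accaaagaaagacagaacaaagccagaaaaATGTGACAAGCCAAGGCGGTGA
Vegfa-202: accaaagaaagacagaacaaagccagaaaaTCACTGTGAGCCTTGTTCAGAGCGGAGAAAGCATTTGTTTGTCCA
Vegfa-207: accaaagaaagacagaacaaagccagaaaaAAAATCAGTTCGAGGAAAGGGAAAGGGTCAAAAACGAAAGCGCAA

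Most of the Vegfa signal was assigned to the short form. Vegfa-201 held 68.5% to 74.5% of the gene's FPKM in Control and 70.4% to 79.5% in AngII+QDG mice. It was at 21.6 to 26.5 FPKM in Control and 25.0 to 34.2 FPKM in AngII+QDG mice. In the AngII group 4 mice had 28.5 to 32.6 FPKM, but AngII mouse 5 had 1.93 FPKM of Vegfa-201 and 32.0 FPKM of Vegfa-202, where the other 4 had 2.49 to 4.12 FPKM. The gene total of that mouse, 45.2 FPKM, lay within its group. With that mouse in the fit the intervals of both forms were wide: the difference in AngII vs. Control was -0.33 (-1.47 to 0.81) for Vegfa-201 and 0.68 (-0.35 to 1.71) for Vegfa-202 (limma, adjusted p = 0.823 and 0.537). Vegfa-207 averaged 2.62 ± 0.426, 2.94 ± 0.293 and 2.93 ± 0.737 FPKM in Control, AngII and AngII+QDG kidneys. The annotated retained-intron transcripts Vegfa-208, at 2.97 ± 1.22, 5.80 ± 2.48 and 3.37 ± 1.52 FPKM, and Vegfa-206, at 0.899 ± 0.287, 1.85 ± 0.762 and 1.21 ± 0.412 FPKM, differed by 0.75 and 0.55 in AngII vs. Control (limma, adjusted p = 0.258 and 0.216).

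Among the VEGF receptors, Kdr (ENSMUSG00000062960, chr5:75932827-75978458, minus strand), the main signalling receptor, was at 15.1, 15.1, 14.4, 12.3 and 10.01 FPKM in Control, 16.6, 18.6, 13.9, 14.1 and 18.7 FPKM in AngII and 14.6, 16.03, 18.7, 14.6 and 16.1 FPKM in AngII+QDG mice. The highest 3 AngII mice stood above all Control mice and the other 2 within them. The difference was 0.28 (0.019 to 0.53) in AngII vs. Control (limma, Benjamini-Hochberg adjusted p = 0.187), -0.026 (-0.28 to 0.23) in AngII+QDG vs. AngII (adjusted p = 0.947) and 0.25 (-0.0064 to 0.51) in AngII+QDG vs. Control (adjusted p = 0.360).

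Nrp1 (ENSMUSG00000025810, chr8:128358604-128503363, plus strand), the neuropilin co-receptor for heparin-binding VEGF-A, was at 3.26, 4.37, 3.95, 3.72 and 3.62 FPKM in Control, 4.78, 3.54, 2.45, 3.37 and 3.27 FPKM in AngII and 2.38, 3.69, 3.90, 4.89 and 4.23 FPKM in AngII+QDG mice. The Control values fell inside the range of both other groups. The difference was -0.11 (-0.43 to 0.21) in AngII vs. Control (limma, Benjamini-Hochberg adjusted p = 0.719) and 0.10 (-0.22 to 0.42) in AngII+QDG vs. AngII (adjusted p = 0.802).

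Flt1 (ENSMUSG00000029648, chr5:147561604-147726011, minus strand), the gene of the decoy receptor VEGFR1, was at 6.52, 5.68, 10.4, 9.84 and 9.48 FPKM in Control, 8.14, 13.3, 9.95, 6.24 and 13.9 FPKM in AngII and 5.23, 13.2, 6.85, 8.35 and 5.87 FPKM in AngII+QDG mice. The 3 groups overlapped over most of their ranges. The gene differed by 0.25 (-0.29 to 0.79) in AngII vs. Control (limma, Benjamini-Hochberg adjusted p = 0.605) and by -0.36 (-0.90 to 0.18) in AngII+QDG vs. AngII (adjusted p = 0.519). Its 2 listed transcripts encode the membrane receptor (Flt1-202, 30 exons, 1333 residues) and the soluble form (Flt1-203, 13 exons, 688 residues), which reads through the end of exon 13 to a stop codon and so lacks the membrane anchor and kinase. The sequences show the parting point on the minus strand of chromosome 5, with 30 shared bases of exon 13 in lower case, the last at base 147639225, and the diverging coding bases in capitals, from exon 14 at base 147634523 for Flt1-202 and from the next base, 147639224, for Flt1-203.
Flt1-202: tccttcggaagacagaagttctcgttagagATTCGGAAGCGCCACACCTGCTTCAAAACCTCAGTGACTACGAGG
Flt1-203: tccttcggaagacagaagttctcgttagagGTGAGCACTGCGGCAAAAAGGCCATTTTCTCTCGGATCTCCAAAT

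The level assigned to the soluble form varied little between Control kidneys, and that assigned to the membrane form varied more. How the upstream software shared reads between the forms was not tested. Flt1-203 was at 5.41, 5.09, 5.11, 5.05 and 4.95 FPKM in Control, 6.66, 6.61, 8.43, 5.04 and 7.57 FPKM in AngII and 4.65, 6.27, 6.20, 6.14 and 5.38 FPKM in AngII+QDG mice. In the AngII group 4 of 5 mice exceeded all Control mice. The difference was 0.35 (0.090 to 0.60) in AngII vs. Control (limma, adjusted p = 0.170 over 28812 transcripts) and -0.22 (-0.47 to 0.040) in AngII+QDG vs. AngII (adjusted p = 0.530). Flt1-202 was at 1.12, 0.591, 5.29, 4.80 and 4.53 FPKM in Control, 1.48, 6.70, 1.51, 1.198 and 6.36 FPKM in AngII and 0.583, 6.90, 0.654, 2.21 and 0.493 FPKM in AngII+QDG mice. Each group held mice under 1.6 FPKM and at least 1 above 5 FPKM, and the SD of Flt1-202 was 2.23, 2.82 and 2.74 FPKM, beside 0.171, 1.26 and 0.703 FPKM for Flt1-203. No tested transcript of the 10 genes passed the adjusted threshold in any of the 3 comparisons (Pecam1-202 and Tie1-203 were below the filter and not tested), in which 199, 28 and 7 of 28812 transcripts did.

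**Figure D2:**
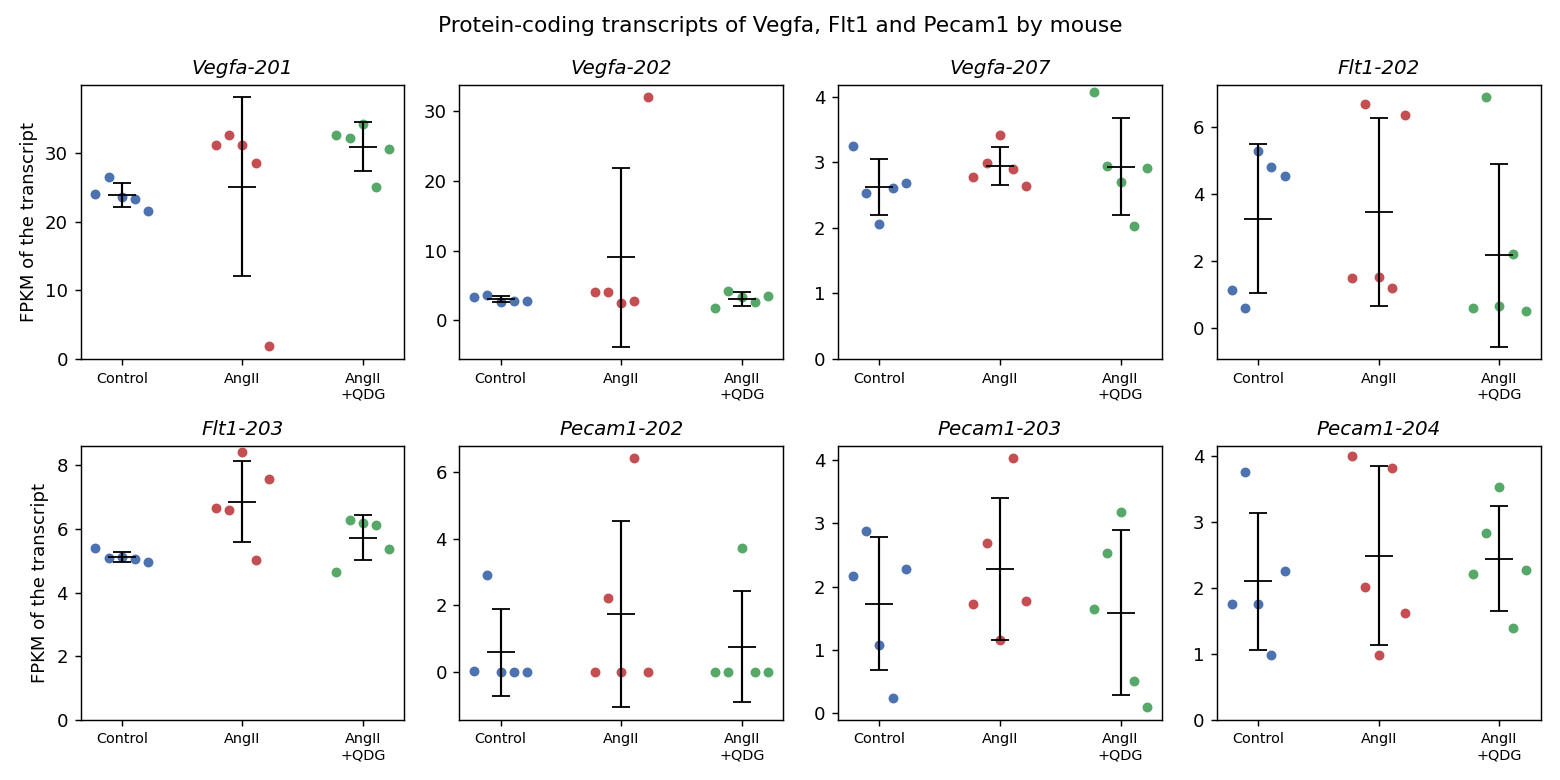
FPKM of single protein-coding transcripts (y axis, linear, own scale per panel) of Vegfa, Flt1 and Pecam1 in the 5 mice of each group (x axis). Points are mice, long horizontal bars are means and error bars are SD, which may reach below 0. AngII mouse 5 stands apart at 1.93 FPKM of Vegfa-201 and 32.0 FPKM of Vegfa-202.

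The junction gene Cdh5 (ENSMUSG00000031871, chr8:104101625-104144511, plus strand) encodes VE-cadherin, which holds endothelial cells together. It was at 8.14, 10.4, 7.39, 7.49 and 7.54 FPKM in Control, 11.3, 9.26, 8.49, 9.18 and 9.54 FPKM in AngII and 7.71, 9.64, 10.8, 9.98 and 10.7 FPKM in AngII+QDG mice. Apart from Control mouse 2, the Control mice lay below all AngII mice. The difference was 0.20 (-0.027 to 0.43) in AngII vs. Control (limma, Benjamini-Hochberg adjusted p = 0.286) and 0.025 (-0.21 to 0.26) in AngII+QDG vs. AngII (adjusted p = 0.942).

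Pecam1 (ENSMUSG00000020717, chr11:106654217-106750628, minus strand), the gene of the adhesion protein CD31, was among the most variable members. It was at 3.94, 9.53, 2.84, 1.23 and 4.54 FPKM in Control, 5.73, 6.92, 2.15, 14.3 and 3.39 FPKM in AngII and 3.86, 5.36, 10.4, 1.90 and 2.38 FPKM in AngII+QDG mice. Each group had a mouse above 9 FPKM and a mouse under 3 FPKM. The difference was 0.44 (-0.60 to 1.48) in AngII vs. Control (limma, Benjamini-Hochberg adjusted p = 0.643) and -0.34 (-1.38 to 0.70) in AngII+QDG vs. AngII (adjusted p = 0.789). Of its 3 listed transcripts, Pecam1-202 was under 0.02 FPKM in 11 mice and at 2.90, 2.22, 6.42 and 3.73 FPKM in Control mouse 2, AngII mice 2 and 4, and AngII+QDG mouse 3. Pecam1-203 averaged 1.73 ± 1.05, 2.27 ± 1.12 and 1.59 ± 1.30 FPKM and Pecam1-204 averaged 2.10 ± 1.03, 2.49 ± 1.35 and 2.44 ± 0.795 FPKM in Control, AngII and AngII+QDG kidneys.

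Among the other members, Tek had most of its signal in 1 transcript and Tie1 less uniformly. Tek-201 held 87.3% to 94.4% of the Tek level and averaged 11.7 ± 1.86, 11.7 ± 1.05 and 12.5 ± 1.96 FPKM in Control, AngII and AngII+QDG kidneys. Tek-203 averaged 1.04 ± 0.293, 1.07 ± 0.270 and 1.59 ± 0.243 FPKM, a difference of 0.33 (0.039 to 0.62) in AngII+QDG vs. AngII (limma, adjusted p = 0.375). Tie1-201 held 73.7% to 90.8% of the Tie1 level in Control, 73.8% to 86.5% in AngII and 57.7% to 87.97% in AngII+QDG mice, and averaged 7.62 ± 1.16, 9.41 ± 0.999 and 8.89 ± 1.24 FPKM, with a difference of 0.28 (0.020 to 0.54) in AngII vs. Control (limma, adjusted p = 0.278). The non-coding Tie1-202 averaged 0.968 ± 0.438, 1.41 ± 0.896 and 2.26 ± 1.32 FPKM and held up to 37.7% of the level in an AngII+QDG mouse. With protein-coding transcripts alone the difference of Tie1 in AngII+QDG vs. AngII was -0.12. Angpt1, Angpt2, Kdr, Nrp1 and Cdh5 had 1 listed transcript each.

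**Figure D3:**
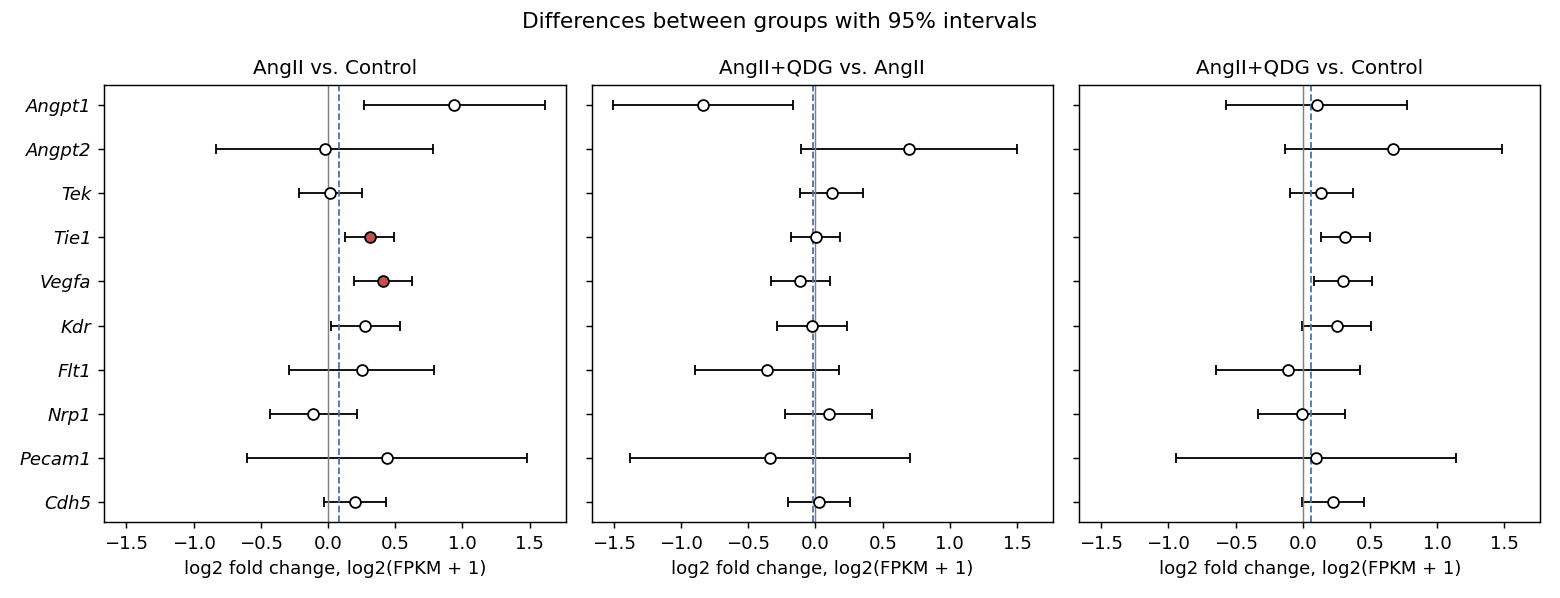
Fitted log2 fold change of the 10 genes on the log2(FPKM + 1) scale (x axis) in the 3 comparisons, with 95% intervals. Filled points passed an adjusted p of 0.05, the dashed line is the median of all 12372 genes tested, and the only filled points are Tie1 (0.31) and Vegfa (0.41) in AngII vs. Control.

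Genes that act with the members were examined as lists, to be read beside all genes tested, of which 5.94% were called in either direction in AngII vs. Control and whose median was 0.083. In lists of this size, 0 calls is near that share. Of the angiopoietin-Tie pathway (the phosphatase Ptprb, the integrins, Foxo1 and others), 8 genes were tested and 0 were called in either direction in AngII vs. Control, with a median difference of 0.15. The lowest unadjusted p belonged to the integrin subunit Itga5, at 1.52 ± 0.273 FPKM in Control and 2.07 ± 0.398 FPKM in AngII kidneys (limma, adjusted p = 0.212), and to Foxo1, a transcription factor that Tie2 signalling restrains, at 6.58 ± 0.709 and 7.50 ± 0.636 FPKM (limma, adjusted p = 0.218). Of the VEGF family and its signalling partners, 16 were tested and 0 called, with a median of 0.14. There the lowest were Plcg1, the phospholipase downstream of VEGFR2, at 8.12 ± 0.864 and 9.57 ± 0.267 FPKM (limma, adjusted p = 0.130), and Gipc1, an adaptor of neuropilin, at 23.0 ± 1.97 and 26.7 ± 2.99 FPKM (limma, adjusted p = 0.136). Of the VE-cadherin and junction partners, 13 were tested and 0 called, with a median of 0.094. Ctnna1 (alpha-catenin) averaged 78.1 ± 6.39 and 87.1 ± 4.63 FPKM, and the junctional adhesion gene Jam2 2.13 ± 0.477 and 2.78 ± 0.425 FPKM (limma, adjusted p = 0.142 and 0.194).

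Of 10 regulators of Vegfa mRNA, covering the hypoxia pathway and RNA-binding proteins, 1 was higher and 0 lower in AngII vs. Control, beside 4.95% of all genes that were higher, with a median of 0.10. It was Hnrnpl, an RNA-binding protein, at 48.1 ± 5.13 FPKM in Control and 59.6 ± 2.84 FPKM in AngII kidneys, a difference of 0.31 (limma, adjusted p = 0.0231) that was 0.054 (adjusted p = 0.811) when protein-coding transcripts alone were summed. It was not called either after quantile normalization (adjusted p = 0.0707) or median scaling (0.0746), with the 2 groups alone (0.0571), or without AngII mouse 1 or 5, where the adjusted p was at most 0.0521. In AngII+QDG vs. AngII, 0 genes were called in each of these lists and in each of the marker lists, which is near the 1.81% of all genes called there.

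Beyond the 10 members, some markers of endothelial cells were higher in AngII kidneys. Of 21 tested, 4 were higher and 0 lower, beside 4.95% of all genes that were higher, 17 had a fitted difference above 0, and the median was 0.23 beside 0.083 over all genes. The difference was below 0, and not called, for Emcn (-0.37), Tm4sf1 (-0.054), S1pr1 (-0.033) and Fli1 (-0.023). Sox18, an endothelial transcription factor, averaged 6.20 ± 0.898 FPKM in Control and 11.6 ± 1.13 FPKM in AngII kidneys, a difference of 0.81 (limma, adjusted p = 0.00833). Rasip1, which acts in vessel tube formation, was at 3.52 ± 0.660 and 5.64 ± 0.799 FPKM (0.56, adjusted p = 0.0139 by limma). Egfl7, a secreted endothelial factor, was at 8.02 ± 1.74 and 16.3 ± 4.48 FPKM (0.92, adjusted p = 0.0140 by limma). Ehd3, expressed in glomerular endothelium, was at 10.5 ± 1.19 and 15.6 ± 2.80 FPKM (0.51, adjusted p = 0.0286 by limma). The call was lost for Egfl7 with protein-coding transcripts alone (adjusted p = 0.125), and for Ehd3 after quantile normalization or median scaling (adjusted p = 0.0783 and 0.0892), with the 2 groups alone (0.0558) and without Control mouse 1, 3 or 4 or AngII mouse 2, 3 or 5 (adjusted p = 0.0560 to 0.0708). The summed level of the list was 275 to 339 FPKM in AngII and 216 to 306 FPKM in Control mice. Its part in the result for Tie1, which is itself an endothelial gene, was not tested.

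Some markers of other cell types were higher in the same comparison. Of 6 podocyte markers tested, 1 was higher and 0 lower, beside 4.95% of all genes that were higher: Podxl (podocalyxin) averaged 48.2 ± 3.33 FPKM in Control and 62.1 ± 6.84 FPKM in AngII kidneys (0.35, limma, adjusted p = 0.0278). It lost its call after quantile normalization (adjusted p = 0.121) and median scaling (adjusted p = 0.108), and without Control mouse 1, 3 or 5 or AngII mouse 2 or 5 (adjusted p = 0.0523 to 0.0694). Of 10 mesangial, pericyte and smooth muscle markers, 2 were higher and 0 lower, beside the same 4.95% of all genes: Tagln, a smooth muscle actin-binding protein (20.3 ± 2.02 and 31.6 ± 8.38 FPKM, limma, adjusted p = 0.0326), and Pdgfrb, the pericyte receptor for PDGF-B (0.634 ± 0.634 and 2.35 ± 0.225 FPKM, limma, adjusted p = 0.0468). Neither was called after quantile normalization or median scaling, or without AngII mouse 1, 3, 4 or 5 or Control mouse 1, 3 or 5 (adjusted p = 0.0504 to 0.108). Pdgfrb was not called either without Control mouse 2, AngII mouse 2 or AngII+QDG mouse 3 or 4 (adjusted p = 0.0519 to 0.0833), with a pseudocount of 0.1 (0.0603) or with protein-coding transcripts alone (0.0607), and Tagln was not called with the 2 groups alone (0.0789). Pdgfrb was at 0 to 1.34 FPKM in Control, 2.12 to 2.72 FPKM in AngII and 1.04 to 5.04 FPKM in AngII+QDG mice. It thus passed the filter on low values mainly through the infused groups, so a difference was favoured by the filter. The summed level of this list, 69.1 to 138 FPKM in AngII and 61.5 to 78.9 FPKM in Control mice, overlapped between the groups.

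The remaining lists gave 0 calls in AngII vs. Control at an adjusted p under 0.05. They covered 8 proximal tubule, 4 thick ascending limb and 5 leukocyte and platelet markers, with 4, 0 and 1 genes at an unadjusted p under 0.05, beside 22.7% of all genes. The lowest were Slc34a1 (0.29) and Slc27a2 (-0.29), Slc12a1 (-0.61) and Umod (-0.16), and Itga2b (0.35) and Adgre1 (-0.39). Of the lymphatic markers only Pdpn could be tested, at 2.65 ± 0.292 and 2.77 ± 0.658 FPKM (limma, adjusted p = 0.932). Leukocyte and platelet markers summed to 16.2 to 27.7 FPKM in Control, 10.8 to 23.7 FPKM in AngII and 20.9 to 68.3 FPKM in AngII+QDG mice. The largest part of these sums was Lyz2, at 9.60 to 21.6, 6.41 to 17.2 and 12.6 to 58.0 FPKM in the same groups. Its highest value, in an AngII+QDG mouse, set the upper end of the sum in that group. The summed level of endothelial markers was 255 to 319 FPKM in AngII+QDG mice, beside 275 to 339 FPKM in AngII mice.

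**Figure D4:**
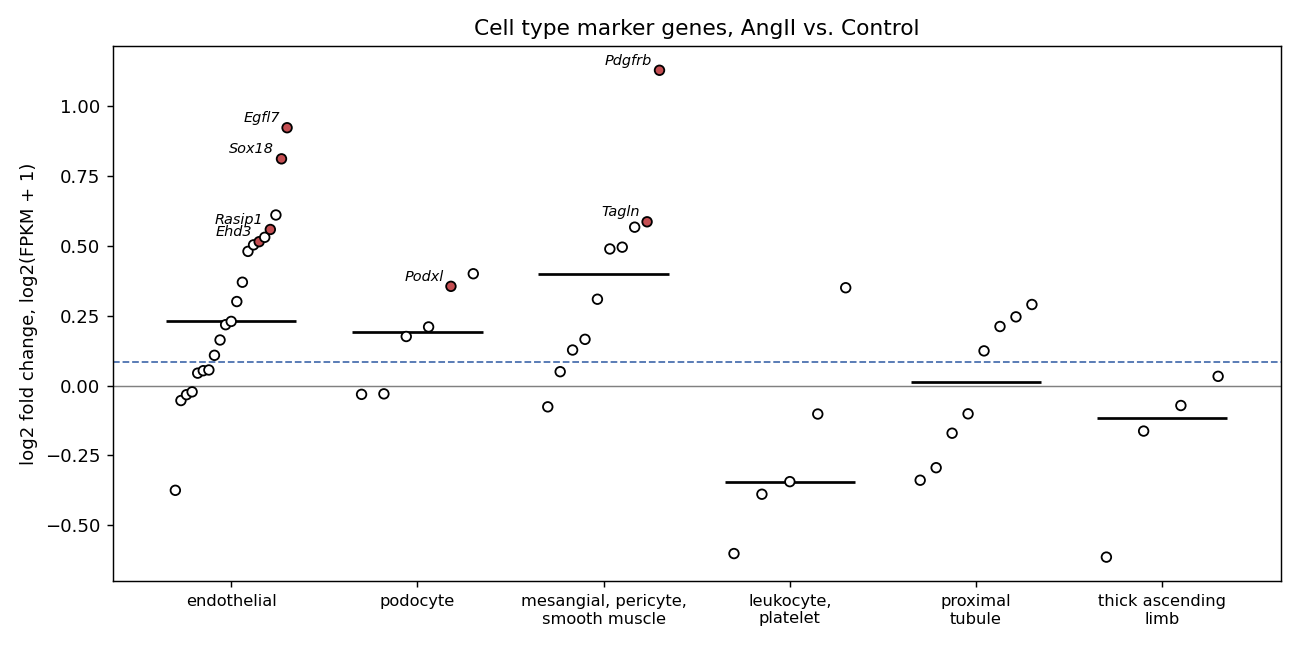
Log2 fold change in AngII vs. Control on the log2(FPKM + 1) scale (y axis) of single marker genes (points) of 6 cell type lists (x axis). Filled, named points passed an adjusted p of 0.05, black bars are list medians and the dashed line is the median of all genes, 0.083. The named genes are 4 endothelial genes, 1 podocyte gene and 2 mesangial, pericyte or smooth muscle genes, and all lie above 0.

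Whether the members vary together from kidney to kidney was examined after the group means were removed, over all 45 pairs in 15 mice. For 29 pairs r was above 0, for 8 the unadjusted p was under 0.05, and 3 pairs passed after Benjamini-Hochberg adjustment of the permutation p over the 45 pairs. The share among pairs of other genes was not computed, so these counts cannot be read as particular to the members. Tek and Cdh5, both endothelial surface genes, had r = 0.863 (permutation p = 0.00093, adjusted 0.0259) and rho = 0.782 (permutation p = 0.00152, adjusted 0.0684). Without the 2 mice farthest from the median of Tek r was 0.770. Angpt2 and Tek had r = 0.683 (permutation p = 0.00115, adjusted 0.0259) and rho = 0.550 (permutation p = 0.0265, adjusted 0.239), and r fell to 0.508 without 2 mice. Nrp1 and Cdh5 had r = 0.767 (permutation p = 0.00226, adjusted 0.0339) and rho = 0.679 (permutation p = 0.0112, adjusted 0.168), and r fell to 0.567 without 2 mice.

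No pair passed the adjusted threshold by rho, the lowest being that of Tek and Cdh5. Vegfa and its receptor gene Kdr had r = 0.601 (permutation p = 0.0142, adjusted 0.106) and 0.633 without 2 mice. Angpt2 and Flt1 ran in opposite directions, with r = -0.568 (permutation p = 0.0472, adjusted 0.255). Angpt1 and Angpt2, ligands of the same receptor, had r = -0.061 (permutation p = 0.846, adjusted 0.871). The 2 genes of a pair were measured in the same libraries, and Control mouse 2 was the highest Control mouse for Angpt2, Tek, Tie1, Vegfa, Nrp1, Pecam1 and Cdh5.

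**Figure D5:**
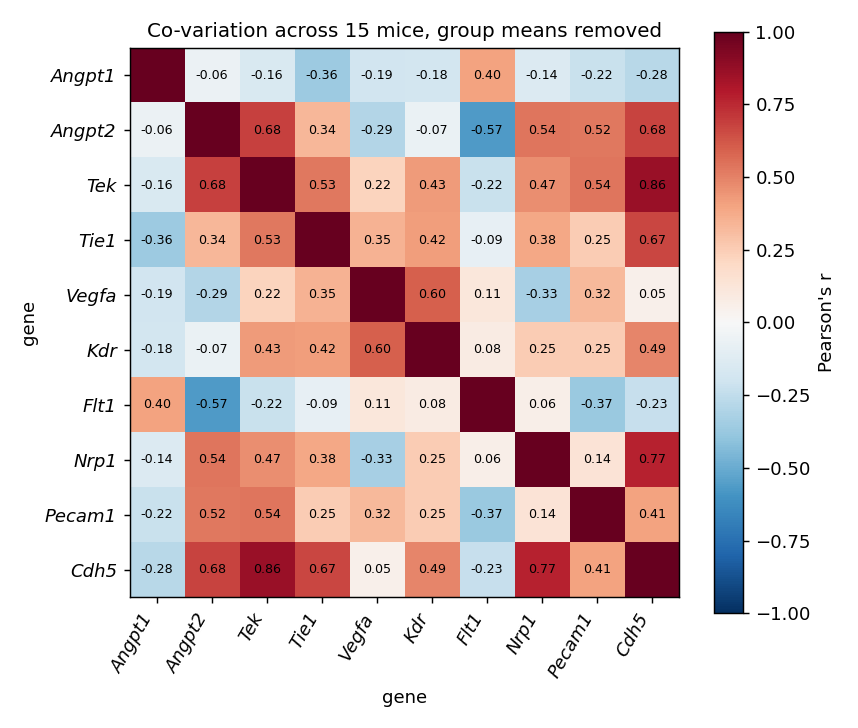
Pearson's r (colour and number) between the log2(FPKM + 1) levels of each pair of the 10 genes over 15 mice after the group means were removed. The strongest positive value is that of Tek and Cdh5 (0.86) and the strongest negative value that of Angpt2 and Flt1 (-0.57).

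Genes with the most similar pattern were sought among 12372 tested genes by Pearson's r over the 15 mice, group differences included, as a description. For Kdr they were Cyyr1 (r = 0.883), which is an endothelial marker of the lists above, Enpep (0.876), the aminopeptidase that cleaves angiotensin II, and Fkbp14 (0.871). For Angpt1 they were Gar1 (0.833), a small nucleolar ribonucleoprotein gene, Smurf2 (0.821), a ubiquitin ligase, and Pdlim2 (0.795).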

How the data were processed

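Per the study's methods, kidney RNA was depleted of rRNA, taken through a poly(A) mRNA isolation kit and sequenced in paired ends. The deposit holds 1 file per mouse. The deposited values, from the authors, are 1 number per transcript, taken as FPKM because the value times the transcript's length was a whole multiple (tolerance 0.05) of 1 constant per mouse for 98.4% to 98.7% of values under 200 reads. The labels name mm10 and limma among the submitters' processing tools. Aligner, counter and use of strand are not given in the sources used here, so antisense reads cannot be told apart. Each Control file lists 41477 transcripts, and each AngII or AngII+QDG file lists 42310. A difference in how the files were made therefore cannot be told apart from the infusion in comparisons with Control. Of 40054 transcripts listed for all 15 mice, 28913 carry Ensembl identifiers, 28871 were matched to GENCODE release M21, and 11141 assembled ones carry no gene name. FPKM was summed per gene, which gave 13940 genes.

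Genes at 1 FPKM or more in at least 5 mice (12372) were tested on log2(FPKM + 1) with limma 3.58.1 (R 4.3.3, group means, trended variance, all 15 mice, 12 residual degrees of freedom, two-sided), with Benjamini-Hochberg adjustment per comparison. Fold changes are on that scale, which understates low genes. Transcripts were tested likewise. Co-variation used 100000 permutations of mice within groups (Python 3.11.15, numpy 2.4.6), two-sided. The fit was tested on simulated data. Named were all members, their transcripts averaging at least 1 FPKM (and others where a comparison within a gene needed them), the called genes of each list (at most 4) or else the 2 with the lowest p, the 3 most similar genes for Angpt1 and Kdr, and Ren1. Lyz2 and the endothelial markers with a difference below 0 in AngII vs. Control were named as well. The members and lists were chosen with earlier results of these data known. Mice were grouped by the group label and numbered in accession order. Alternatives were a pseudocount of 0.1, no filter, quantile normalization, median scaling, all listed or protein-coding transcripts, the 2 compared groups alone, and leaving out each mouse. List genes not listed for all mice (such as Pgf, Angpt4, Lyve1 and Cd3e) were not analysed here, and 1 marker gene is not reported here.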

Additional observations from a re-analysis of the deposited data

Results flagged for a closer look

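A sample stood far from the other 4 of its group, by Dixon's test, in 9 of 72 groups of 5 that were examined over genes and transcripts. Chance alone flags about 1 in 20 such groups. At the gene level, Angpt1 was at 1.65 FPKM in Control mouse 3 and 0.147 to 0.414 FPKM in the other Control mice. Control mouse 2 had 5.39 FPKM of Angpt2 (others 1.66 to 2.54 FPKM) and 10.4 FPKM of Cdh5 (others 7.39 to 8.14 FPKM). Vegfa was at 31.4 FPKM in AngII+QDG mouse 4, within the Control range, and at 41.8 to 45.6 FPKM in the others of that group. Without Control mouse 2 the difference of Cdh5 in AngII vs. Control was the highest of those that left out a mouse, 0.28.

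At the transcript level, AngII mouse 5 had 1.93 FPKM of Vegfa-201 (others 28.5 to 32.6 FPKM) and 32.0 FPKM of Vegfa-202 (others 2.49 to 4.12 FPKM). The transcript Flt1-202 was at 6.90 FPKM in AngII+QDG mouse 2 and at 0.493 to 2.21 FPKM in the other 4. Pecam1-202 was at 2.90 FPKM in Control mouse 2 (others 0.00375 to 0.0192 FPKM) and at 3.73 FPKM in AngII+QDG mouse 3 (others 0.00434 to 0.0120 FPKM). How the upstream software shared reads between the transcripts of a gene was not tested.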

How the results depend on the processing

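Members called in AngII vs. Control numbered 2. The count was 1 (Vegfa) without a filter, with protein-coding transcripts alone and with the 2 compared groups alone in the fit, 0 after quantile normalization and 0 after median scaling, and 0 to 2 when each mouse was left out. The difference of Vegfa was 0.31 to 0.42 over the other settings (adjusted p = 0.0294 to 0.107) and 0.36 to 0.45 without each mouse (0.0109 to 0.0726). That of Tie1 was 0.22 to 0.34 (0.0441 to 0.115) and 0.26 to 0.36 (0.0239 to 0.106). Members at the fold criterion numbered 0 in AngII vs. Control and in AngII+QDG vs. AngII, 1 (Angpt1) in each with a pseudocount of 0.1, and 0 to 1 without each mouse. In AngII vs. Control the called mesangial list numbered 2 and became 1 with the pseudocount of 0.1, 0 after quantile normalization and median scaling, 1 with protein-coding transcripts or the 2 groups alone, and 0 to 2 without each mouse. Called podocyte markers numbered 1 and became 0 after quantile normalization and median scaling and 0 to 2 without each mouse. Regulators of Vegfa mRNA became 0 under quantile normalization, median scaling, protein-coding transcripts or the 2 groups alone, and 0 to 2 without each mouse. With all listed transcripts 1 leukocyte marker (Ptprc) was called, with median scaling 1 proximal tubule marker (Cubn), without Control mouse 2 the junction list gained 1 (Ctnna1, 0 to 1), and without AngII mouse 3 the VEGF list gained 1 (Gipc1, 0 to 1). The cause was not tested.

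Signs that turned were all of differences far from the threshold: Kdr in AngII+QDG vs. AngII after quantile normalization (0.0061), Tek in AngII vs. Control after quantile normalization (-0.073) and median scaling (-0.080), Tie1 in AngII+QDG vs. AngII with protein-coding transcripts (-0.12), and Hnrnpl there after quantile normalization (0.034) and with protein-coding transcripts (0.11). Leaving out mice turned the sign of Angpt1 (-0.10 to 0.31), Flt1 (-0.29 to 0.0028), Nrp1 (-0.088 to 0.11) and Pecam1 (-0.19 to 0.38) in AngII+QDG vs. Control, of Angpt2 (-0.30 to 0.19) and Tek (-0.034 to 0.098) in AngII vs. Control, and of Cdh5 (-0.012 to 0.099), Kdr (-0.080 to 0.022), Tie1 (-0.048 to 0.059), Pdgfrb (-0.33 to 0.065) and Podxl (-0.026 to 0.079) in AngII+QDG vs. AngII. Angpt1 in AngII+QDG vs. Control could not be fitted with those groups alone, where it fell below the filter. No paired analysis was possible because the labels number no replicates and name no litter, batch or pair. The implied depth of Angpt1, 34 to 1136 fragments, limits its precision.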
